A study of Homo sapiens with 9 samples.

Results

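The CD1 family was followed in ALL-SIL cells, an established T-cell acute lymphoblastic leukemia (T-ALL) line that overexpresses the homeobox gene *TLX1*, after knockdown of the chromatin-associated protein PHF6. The family was taken as every probe whose transcript identifier belongs to *CD1A*, *CD1B*, *CD1C*, *CD1D* or *CD1E*, which gave 5 probes, 1 for each of 5 genes, among 57176 probes on the array. RNA was measured on 9 one-colour Agilent arrays, with 3 arrays for each of 3 groups. Cells of the line, with no other treatment given in the labels, were electroporated with a control siRNA, with *PHF6* siRNA1 or with *PHF6* siRNA2, and were collected at 96 h according to most labels and at 72 h according to a free-text description. Every array therefore comes from 1 cell line that went through electroporation, and an untransfected group was not analysed here. The study's methods call the samples of a group independent. The methods name a Silencer Select siRNA and an ON-TARGETplus SMARTpool against *PHF6*, and not which of them is siRNA1. Replicates 1 and 2 of all groups lay on 1 slide and replicate 3 of all groups on another.

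CD1 proteins resemble MHC class I heavy chains, pair with β2-microglobulin and present lipids rather than peptides to T cells. CD1a, CD1b and CD1c display microbial and self lipids at the cell surface and in endosomes, CD1d presents lipids to NKT cells, and CD1e stays inside the cell, where it helps to load lipids onto the others. In the human thymus, *CD1A* to *CD1E* are expressed by CD4+CD8+ cortical thymocytes and are shut off in mature T cells, and surface CD1a defines cortical T-ALL.

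In the reference gene order the 5 genes lie side by side on chromosome 1, with *CD1D* first and then *CD1A*, *CD1B*, *CD1C* and *CD1E*. The sequences around the RefSeq transcription start (250 bases before to 50 after it, GRCh38.p14, plus strand) are shown for *CD1A*, *CD1C* and *CD1E*, the members with an entry that were measured above background on all arrays. Capitals mark GGAA or its complement TTCC, the core letters of ETS factor sites. Of the 5 genes, 4 had an entry, and *CD1B* had none. The windows are chr1:158248086-158248385 for *CD1A*, chr1:158289673-158289972 for *CD1C* and chr1:158353644-158353943 for *CD1E*.
CD1A: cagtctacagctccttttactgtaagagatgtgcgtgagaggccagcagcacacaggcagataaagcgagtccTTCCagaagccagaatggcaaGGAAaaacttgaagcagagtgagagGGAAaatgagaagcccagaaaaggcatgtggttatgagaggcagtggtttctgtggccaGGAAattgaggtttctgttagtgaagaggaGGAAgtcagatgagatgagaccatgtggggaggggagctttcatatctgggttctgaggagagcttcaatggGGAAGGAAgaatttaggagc
CD1C: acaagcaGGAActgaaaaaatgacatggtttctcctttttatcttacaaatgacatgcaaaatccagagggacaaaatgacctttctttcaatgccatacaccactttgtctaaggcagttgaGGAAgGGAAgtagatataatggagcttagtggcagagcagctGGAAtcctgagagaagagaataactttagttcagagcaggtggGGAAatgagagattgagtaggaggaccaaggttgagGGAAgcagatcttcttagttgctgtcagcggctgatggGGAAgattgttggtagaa
CD1E: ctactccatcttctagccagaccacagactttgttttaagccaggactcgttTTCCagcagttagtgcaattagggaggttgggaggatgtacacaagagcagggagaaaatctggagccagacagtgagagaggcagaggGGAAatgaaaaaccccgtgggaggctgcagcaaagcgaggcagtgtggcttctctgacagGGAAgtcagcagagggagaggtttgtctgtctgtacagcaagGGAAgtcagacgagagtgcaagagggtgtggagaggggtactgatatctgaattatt
GGAA on either strand occurred 7 times in the *CD1A* window, 7 times in the *CD1C* window and 4 times in the *CD1E* window. Of 35116 RefSeq windows of 300 bases, 95.5% held it at least once, and 8.29% held it 7 times or more and 46% held it 4 times or more. The E-box letters CANNTG are bound by E proteins such as TCF12. They were found 3 times for *CD1A*, 4 times for *CD1C* and 0 times for *CD1E*. Of all windows, 68.7% held at least 1, 15.3% held 3 or more and 5.58% held 4 or more. TGTGGT, read by RUNX factors, was present once in the *CD1A* and once in the *CD1E* window (13.1% of all windows), and AGATAA, read by GATA factors, once in the *CD1A* and once in the *CD1C* window (10.3%). CTTTGA of TCF and LEF factors (12.9% of all windows) and TGGGAA of RBPJ, which contains the GGAA letters (24%), were not among the letters of these 3 windows. A second *CD1A* start is also listed and not shown. Its window (chr1:158254174-158254473) held TGGGAA once, CANNTG once and GGAA 5 times. For *CD1D*, also not shown, the window of its second start held CTTTGA 2 times (1.29% of windows held as many).

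The knockdown was seen on every siRNA array. *PHF6* was at a normalized log2 value of 11.03 ± 0.16 (SD, n = 3) in control arrays, 9.40 ± 0.28 with siRNA1 and 9.20 ± 0.07 with siRNA2, and it fell by 1.73 on the log2 scale (SE 0.14, limma adjusted p = 0.00277, lower in 6 of 6 siRNA arrays). It passed in 35 of 37 alternatives, and in the other 2, VSN on the processed signal and the fit without control replicate 2, the adjusted p was at most 0.0528. Between 29694 and 33751 probes per array were well above background, and 33595 probes that were so on at least 3 arrays were tested. The normalized values are generalized log2 intensities, so that a difference of 1 is a doubling for bright spots and a smaller number than the true change for dim ones. They are compared only within a probe, because probes differ in how well they hybridize.

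*CD1A*, *CD1B* and *CD1E* were bright and *CD1C* was dim, and all 4 were well above background on 9 of 9 arrays. The raw median intensity of the *CD1A* probe ran from 697 to 4531, that of *CD1B* from 1916 to 5280 and that of *CD1E* from 667 to 1509.5. The *CD1C* spot gave 41 to 116, over a local background of 21.5 to 26. *CD1D* gave 27 to 45 and was well above background on 3 arrays, namely replicates 2 and 3 of siRNA1 and replicate 3 of siRNA2. It was not well above background on any of the 3 control arrays, so that it passed the filter through siRNA arrays alone, and a count over all 5 probes includes values of *CD1D* that are mostly background. ALL-SIL cells thus had readable *CD1A*, *CD1B*, *CD1C* and *CD1E* RNA in all groups, together with the cortical markers *CD4*, *CD8A*, *RAG1*, *DNTT* and *PTCRA*, each above background on 9 of 9 arrays. Of 30 genes in the cortical thymocyte list, which includes pan-T genes such as *CD7*, 28 were above background on all arrays and none was below it throughout.

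*CD1A*, a marker of cortical thymocytes, had normalized log2 values of 9.42, 11.26 and 10.79 in control replicates 1, 2 and 3. With siRNA1 the values were 10.08, 11.63 and 11.84, and with siRNA2 they were 10.37, 11.15 and 12.11. The lowest 3 arrays of the 9 were the 3 of replicate number 1, and control and siRNA arrays overlapped. Against the control that shares its number, 5 of 6 siRNA arrays were higher, by 0.37 to 1.32, and replicate 2 of siRNA2 differed by -0.11. The mean difference was 0.71 (SE 0.51, a ratio of 1.63) for both siRNAs together, with a 95% interval from -0.42 to 1.83 (limma adjusted p = 0.795).

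*CD1B*, whose protein has the largest lipid groove of the family and samples late endosomes, followed nearly the same order. Its control values were 10.89, 11.91 and 11.47 for replicates 1, 2 and 3. The siRNA1 arrays read 11.27, 12.29 and 12.24, and the siRNA2 arrays 11.46, 11.83 and 12.25. Again 5 of 6 siRNA arrays exceeded their own control, replicate 2 of siRNA2 being the exception at -0.08. The difference for both siRNAs was 0.46 (SE 0.29, 95% interval -0.168 to 1.096, limma adjusted p = 0.758).

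*CD1C*, which presents lipids from early and late endosomes, lay above the same-numbered control with both siRNAs in all 3 replicate numbers. Control arrays gave 4.98, 6.35 and 5.48. The siRNA1 arrays gave 5.33, 7.001 and 6.21, and the siRNA2 arrays 5.58, 6.52 and 6.36. The values still overlapped between the groups, since control replicate 2 was higher than 3 of the 6 siRNA arrays. The difference was 0.56 (SE 0.38, 95% interval -0.29 to 1.41, limma adjusted p = 0.781). Its size moved with the normalization, from 0.31 after normexp and quantile normalization to 0.89 on the processed signal scaled to the 75th percentile.

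*CD1E*, the intracellular lipid-loading member, had a mean difference near 0. It read 9.35, 10.48 and 9.95 in the control arrays. With siRNA1 it read 9.50, 10.22 and 10.16, and with siRNA2 9.82, 9.97 and 10.51. Both siRNA arrays of replicate 2 were below their control, by -0.26 and -0.51, and the other 4 siRNA arrays were above theirs. The mean difference was 0.10 (SE 0.26, 95% interval -0.47 to 0.68, limma adjusted p = 0.954), and VSN on the processed signal gave -0.02.

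For *CD1D*, the NKT cell ligand, a level cannot be given for control cells. Its spots read 4.15, 4.97 and 4.605 in control arrays, 4.33, 5.19 and 4.82 with siRNA1, and 4.38, 4.66 and 4.83 with siRNA2. The groups overlapped, and 2 of the 3 siRNA1 arrays and 1 of the 3 siRNA2 arrays measured the probe above background. Because the control values are not well above background, a fitted difference is no measure of a change here, and it is listed with the dependence on the processing alone.

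**Figure D1:**
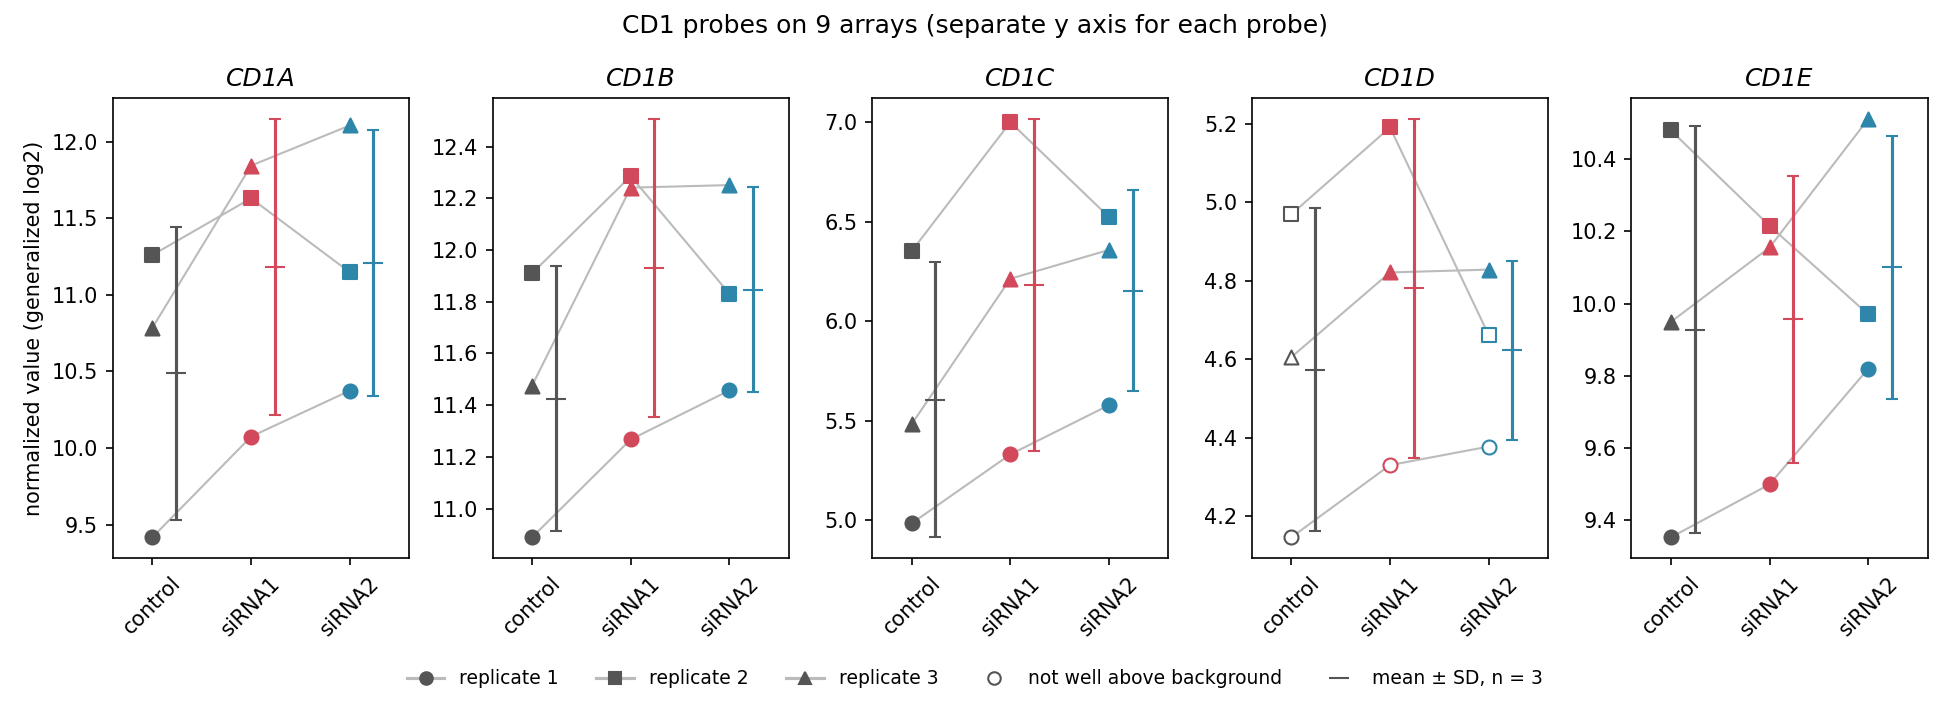
Normalized values (generalized log2, y axis, a separate scale for each probe) of the 5 CD1 probes on the 3 control siRNA, 3 *PHF6* siRNA1 and 3 *PHF6* siRNA2 arrays. Symbols give the replicate number, grey lines join arrays of the same number, open symbols were not well above background, and bars are the mean and SD of 3 arrays. The arrays of replicate 1 were the lowest of each group, and for *CD1A*, *CD1B* and *CD1C* the line rises from control to siRNA1 in all 3 numbers.

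Without regard to the replicate numbers, then, none of the 4 members measured on all arrays passed the limma test for both siRNAs, at a threshold of 0.05 after adjustment over all tested probes. This test called 3 probes of the array, 0.00893%, and an unadjusted p under 0.05 was reached by 2479 probes and by 0 of the CD1 probes. For each siRNA alone the members called were likewise 0, beside 3 probes for siRNA1 (0.00893%) and 4 for siRNA2 (0.0119%). An exact permutation test of the 6 siRNA against the 3 control arrays, two-sided, gave p = 0.286 for *CD1A*, 0.202 for *CD1B*, 0.238 for *CD1C* and 0.738 for *CD1E*, where the smallest value possible is 0.0119.

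Arrays of the same replicate number deviated together, so that each comparison was also made within them, with the number as a block in the fit. The differences keep their size in this fit and their errors shrink. *CD1A* was higher by 0.71 (SE 0.19, 95% interval 0.28 to 1.14), with a limma adjusted p of 0.0793. *CD1B* was higher by 0.46 (SE 0.14, 95% interval 0.16 to 0.77) with an adjusted p of 0.0963, and *CD1C* by 0.56 (SE 0.13, 95% interval 0.27 to 0.86) with an adjusted p of 0.0591. These intervals lie above 0, and none of the 3 genes passed the adjusted threshold. *CD1E* did not pass either (adjusted p = 0.747). The same fit called 820 probes, 2.44% of those tested, 551 of them higher (1.64%) and 269 lower. For siRNA1 alone it called 253 probes (0.753%) and for siRNA2 alone 451 (1.34%), with 0 of the CD1 probes in either.

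The count of members has to be read against how often the array did the same. An unadjusted p under 0.05 with a higher value was reached by *CD1A*, *CD1B* and *CD1C* and by 12.1% of all tested probes in the blocked fit. A positive difference in 6 of 6 siRNA arrays was found for *CD1C* and for 10.7% of probes, and in at least 5 of 6 for *CD1A*, *CD1B* and *CD1C* and for 23.4%. For no member were all 6 siRNA arrays above all 3 control arrays, which held for 1.84% of probes. An exact permutation test that moved the control label among the 3 arrays of each number gave p = 0.037 for *CD1C*, the smallest it can give, and 0.0741 for *CD1A* and *CD1B*, two-sided and not adjusted for the number of probes.

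**Figure D2:**
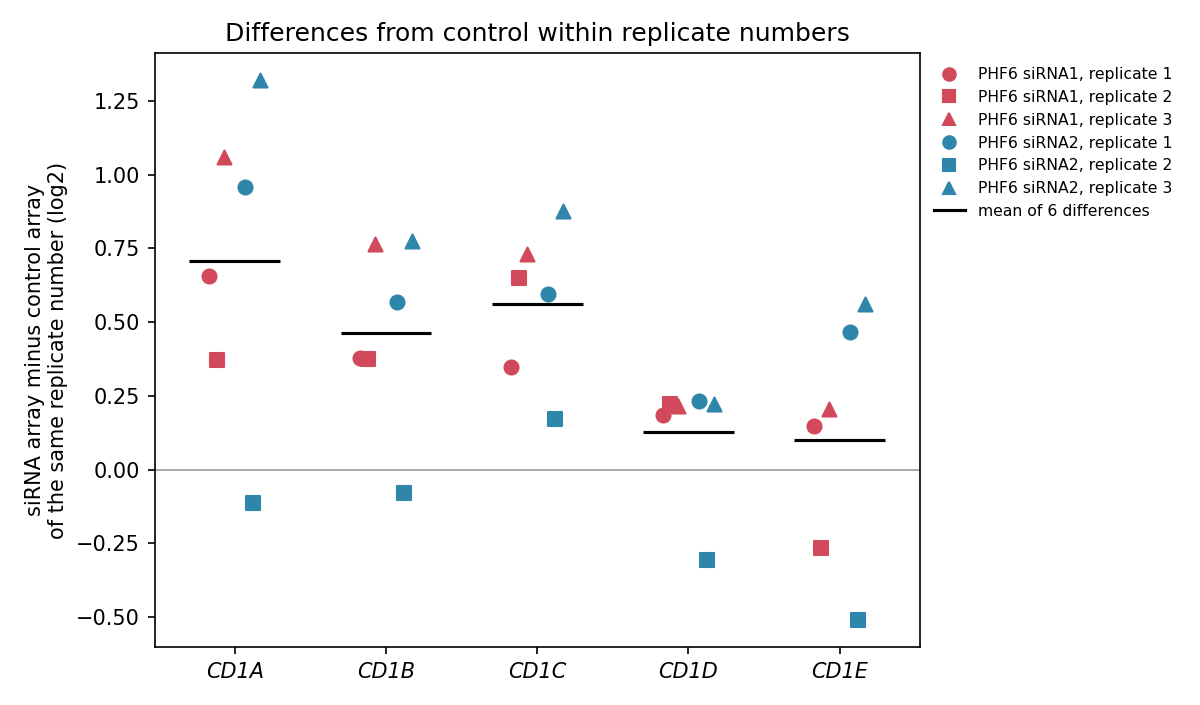
Difference of each siRNA array from the control with its number (log2, y axis) for the 5 CD1 probes, with symbols for the replicate number, colours for the siRNA and a black line at the mean of 6 differences. *PHF6* siRNA2 replicate 2 was the lowest of the 6 for *CD1A*, *CD1B*, *CD1C* and *CD1E*, and the arrays of replicate 3 were the highest for *CD1A*, *CD1B* and *CD1C*.

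The calls moved with the arrays left out. *PHF6* siRNA2 replicate 2 had the lowest signed difference from its control of the 6 siRNA arrays for *CD1A*, *CD1B*, *CD1C* and *CD1E*. Without it, and with the replicate block, *CD1A* was higher by 0.88 (limma adjusted p = 0.0298), *CD1B* by 0.57 (adjusted p = 0.0404) and *CD1C* by 0.67 (adjusted p = 0.0306), and all 3 passed, in a fit that called 696 probes, 2.07% of those tested. With all 3 arrays of replicate 2 left out, this array among them, 0 members and 5 probes (0.0149%) passed, and the adjusted p was 0.101 for *CD1A*, 0.121 for *CD1B* and 0.118 for *CD1C*. Leaving out any other array kept the members called at 0 in the blocked fit. Restricting the blocked fit to probes above background on all 9 arrays called *CD1C* (adjusted p = 0.0362) and no other member, beside 1451 of 27664 probes, or 5.25%. Without control replicate 1, and without the block, the differences dropped to 0.17 for *CD1A*, 0.20 for *CD1B* and 0.25 for *CD1C*, and without control replicate 2 they were 1.095, 0.71 and 0.94.

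The size of the difference also varied with the replicate number and with the slide. For *CD1A* the mean of both siRNAs over control was 0.81 in replicate 1, 0.13 in replicate 2 and 1.19 in replicate 3. For *CD1B* the 3 values were 0.47, 0.15 and 0.77, and for *CD1C* 0.47, 0.41 and 0.80. Within the first slide the differences were 0.47 for *CD1A*, 0.31 for *CD1B*, 0.44 for *CD1C* and -0.04 for *CD1E*. The second slide, with 1 array per group, gave 1.19, 0.77, 0.80 and 0.38. For *CD1A*, *CD1B* and *CD1C* the mean of both siRNAs was thus above control in every replicate number and on both slides, while *CD1E* was lower with siRNA in replicate 2. Taken alone, siRNA2 in replicate 2 was below its control for *CD1A* (-0.11) and *CD1B* (-0.08).

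The siRNAs were not told apart at these genes. Beside control, siRNA1 gave differences of 0.70 for *CD1A*, 0.51 for *CD1B*, 0.58 for *CD1C* and 0.03 for *CD1E*, and siRNA2 gave 0.72, 0.42, 0.55 and 0.17, both measured against the same 3 control arrays. In the blocked fit siRNA2 differed from siRNA1 by 0.03 for *CD1A* (95% interval -0.47 to 0.52), by -0.09 for *CD1B* (-0.44 to 0.27), by -0.03 for *CD1C* (-0.37 to 0.31) and by 0.14 for *CD1E* (-0.26 to 0.55). Without the block limma called 0 probes between the siRNAs (843 at an unadjusted p under 0.05), and with it 12 probes (0.0357%), with no CD1 probe in either.

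The CD1 probes moved far between replicate numbers. Averaged over the 3 groups, *CD1A* stood at 9.96 in replicate 1, 11.35 in replicate 2 and 11.58 in replicate 3. That is a range of 1.62, and 0.268% of all tested probes had one as large, the median probe having a range of 0.32. *CD1C* was at 5.30, 6.63 and 6.02, a range of 1.33 that 0.661% of probes reached. *CD1B* ranged over 0.80 (5.87% of probes as large) and *CD1E* over 0.66 (11.2%). Replicate 1 was the lowest for all of them. Among control arrays alone the *CD1A* values were 1.84 apart, more than any siRNA array of this probe differed from its control.

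A limma F test between the replicate numbers, added after the values had been seen, gave adjusted p-values of 0.00244 for *CD1A*, 0.00753 for *CD1B*, 0.00183 for *CD1C* and 0.0276 for *CD1E*. It called 34.6% of all tested probes, so that passing it is common on these arrays, and the low percentages for *CD1A* and *CD1C* concern the size of the range. The call of *CD1E* was lost on the processed signal (adjusted p = 0.129 after VSN and 0.0666 after scaling to the 75th percentile), and those of *CD1A*, *CD1B* and *CD1C* held in both. It was lost as well with no filter on dim probes (0.0711) and without control replicate 1 (0.122), siRNA1 replicate 1 (0.0957), siRNA1 replicate 2 (0.0585), siRNA1 replicate 3 (0.0595) or siRNA2 replicate 3 (0.0567). *CD1D* gave 0.0123 in this F test, but it was not well above background on any replicate 1 array. It passed the filter through arrays of replicates 2 and 3, so its value is not read as a result. Its call was lost on the processed signal (0.0685 after VSN and 0.0501 after scaling to the 75th percentile). It was also lost after normexp and quantile normalization (0.106) and without siRNA1 replicate 1 (0.0613). Culture, extraction and labelling are not given per replicate number and cannot be told apart here.

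**Figure D3:**
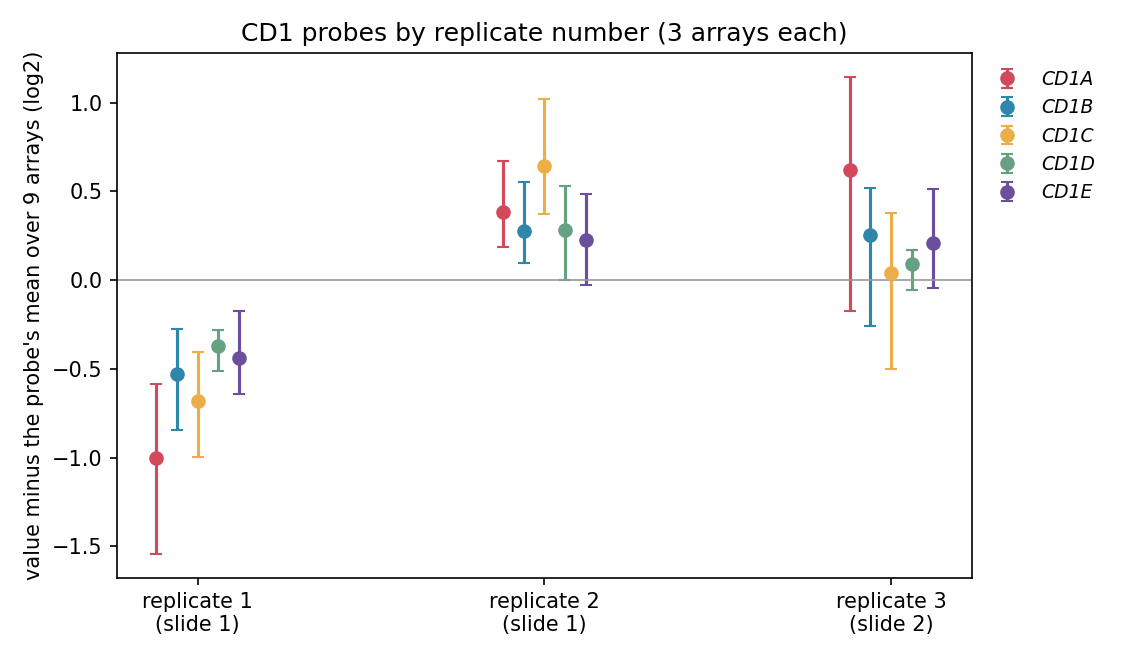
Mean over the 3 arrays of each replicate number, as the distance from the probe's mean over 9 arrays (log2, y axis), for the 5 CD1 probes, with bars from the lowest to the highest of the 3 arrays. Replicate 1 lies below 0 for every member, and *CD1A* spans the widest range, 1.62.

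The members rose and fell together across the arrays. Over the 9 arrays the Pearson correlation of *CD1A* with *CD1B* was 0.98, and it was again 0.98 after each replicate number's mean had been removed. *CD1B* and *CD1C* had 0.91, or 0.97 within replicate numbers, while *CD1C* and *CD1E* had 0.80, or 0.55. *CD1E* thus followed the others between replicate numbers more than within them. The arrays share replicate numbers and slides, so these values are given as a description without a test.

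Dendritic cells, monocytes and B cells also carry CD1 proteins, and their markers were read on the same arrays. *CD207* of Langerhans cells and *FCER1A* of dendritic cells were not above background on any array, and *LYZ* had no named probe. Of the dendritic cell, monocyte and B cell list of 13 genes, 12 had a probe and 8 were tested. With *PHF6* siRNA 3 of the 8 were higher and 5 lower (62.5% lower, against 59.1% of all genes). With the block 0 passed, where 2.13% of all genes did, and without it 0 passed, where 0.00681% did. The 2 with the lowest p were *CLEC10A*, a lectin of dendritic cells (-0.54, adjusted p = 0.0612 with the block), and *CD79A* (-0.33, adjusted p = 0.138 with the block), a B cell receptor subunit that is also found in some T-ALL. The summed median intensity of the list was 5852 to 7778 in control, 5284 to 6292 in siRNA1 and 4931 to 5812 in siRNA2 arrays. Most of that sum is the *CD79A* probe, at 3665 to 7083. The part of such cells in the CD1 values was not tested.

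The other genes of the cortical list gave differences of both signs. The list also holds pan-T genes such as *CD7*, so its counts do not concern the cortical stage alone. Of 29 tested genes of the cortical list, 10 were higher and 19 lower with *PHF6* siRNA, with a median of -0.05 against -0.04 over 14681 tested genes, and the test without the block called 0 of them (6 at an unadjusted p under 0.05, which 6.36% of all genes reached). The share of lower genes was 65.5% in the list and 59.1% over all genes. With the block 4 passed, where 2.13% of all genes did, and 1 of the 4 was higher. *ARPP21*, a cAMP-regulated phosphoprotein of double-positive thymocytes, rose by 0.73 (adjusted p = 0.0266 with the block). *PTCRA*, the pre-TCR α chain, fell by 0.73 (adjusted p = 0.0101), *CD7*, a pan-T marker, fell by 0.76 (adjusted p = 0.0151), and *CD28*, the costimulatory receptor, fell by 0.54 (adjusted p = 0.0351). Of 18 blocked fits, *PTCRA* and *CD7* passed in 14, *ARPP21* in 7 and *CD28* in 6.

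Of the recombination genes of the list, *RAG1* was at 0.70 (adjusted p = 0.0602 with the block, higher in 6 of 6 siRNA arrays), *DNTT*, the enzyme that adds N nucleotides, at 0.41 (adjusted p = 0.188, higher in 5 of 6) and *RAG2* at 0.30 (adjusted p = 0.267, higher in 5 of 6). *RAG1* passed in 2 of 18 blocked fits. The coreceptor genes differed in sign. *CD4* was at -0.30 (adjusted p = 0.191 with the block) and *CD8A* at -0.29 (adjusted p = 0.0974), both lower in 6 of 6 siRNA arrays, and *CD8B*, named after its value was seen, was at 0.11 (adjusted p = 0.480, higher in 5 of 6). *TLX1* was at -0.18 (adjusted p = 0.757 without the block). The list was described by its counts, and whether these genes differ from *CD1A* was not tested.

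**Figure D4:**
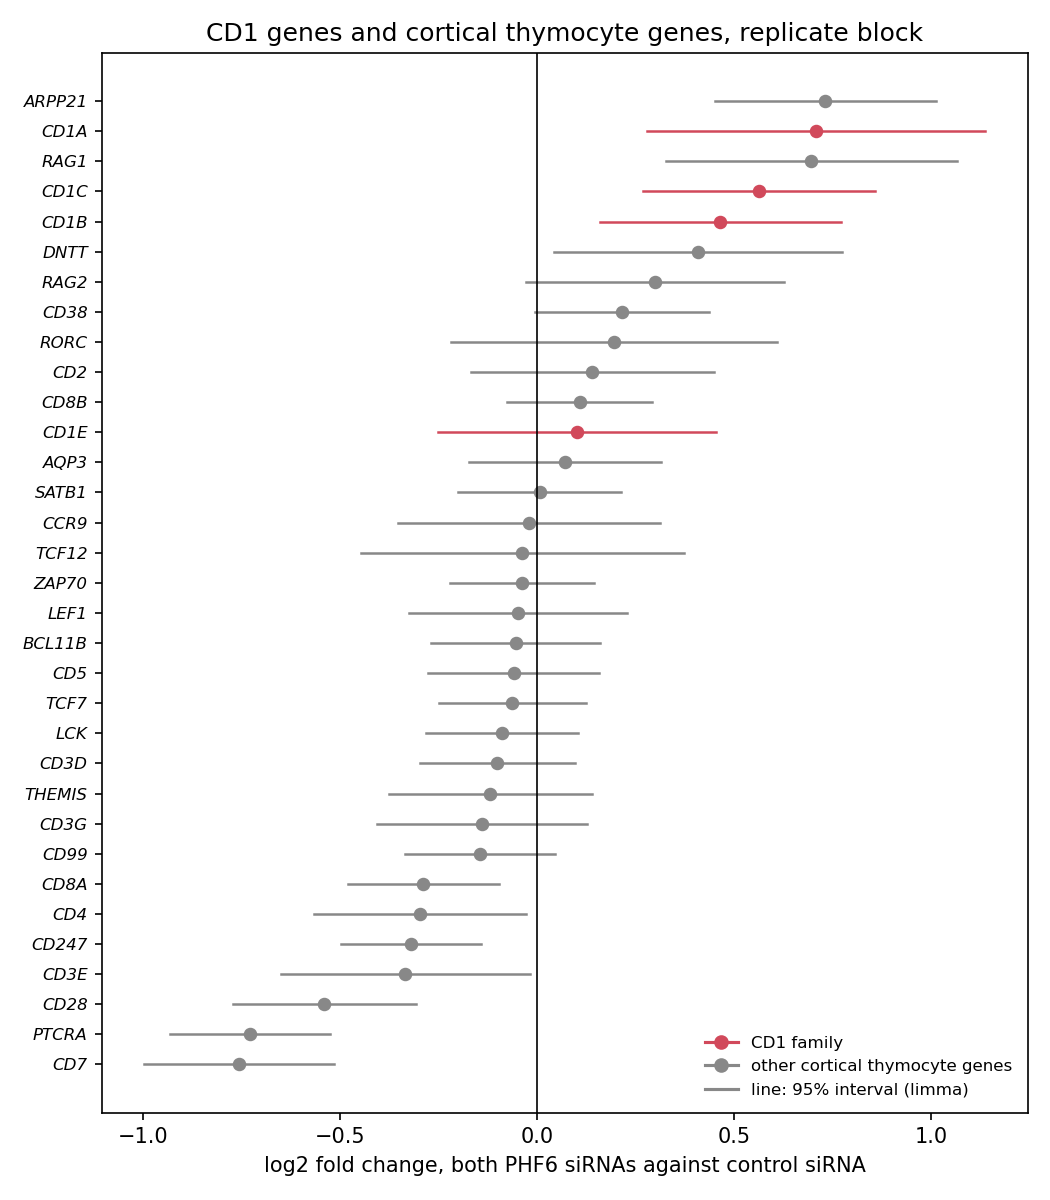
Log2 fold change of both *PHF6* siRNAs over control siRNA (x axis) for 4 CD1 genes and 29 genes of the cortical thymocyte list, pan-T genes such as *CD7* included, with 95% intervals from limma with the replicate block. *CD1D* is left out, since it was not well above background in control arrays. *CD1A*, *CD1C* and *CD1B* lie at the upper end beside *ARPP21* and *RAG1*, and *CD7*, *PTCRA* and *CD28* lie at the lower end.

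Genes that assemble, load and sort CD1 proteins did not pass the test. Of 24 tested genes among 26 listed, 5 were higher and 19 lower (79.2% lower, against 59.1% of all genes), their median was -0.09 against -0.04 over all genes, and 0 passed with or without the block (1 at an unadjusted p under 0.05 without it, where 6.36% of all genes were, and 2 with it, where 19% were). *B2M*, the light chain that every CD1 heavy chain needs, was at 16.53 ± 0.17 (SD, n = 3) in control arrays and differed by -0.08 (limma adjusted p = 0.926), with the sign turning after normexp correction. The 2 genes with the lowest p were *CTSS*, a lysosomal protease (-0.30, adjusted p = 0.0770 with the block), and *AP2M1*, the adaptor subunit that reads tyrosine sorting signals in CD1 tails (-0.22, adjusted p = 0.197). *MTTP*, which lipidates CD1d in the endoplasmic reticulum, and *CD74* did not pass the filter.

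Stage markers on either side of the cortical stage gave mixed values. Of the immature progenitor list of 10 genes, 4 were tested, 2 higher and 2 lower (50% lower, against 59.1% of all genes). With the block 0 passed, where 2.13% of all genes did, and without it 0 passed, where 0.00681% did. *CD34* was dim (4.97 in control arrays, difference -0.11), *LYL1* was at -0.38 (adjusted p = 0.103 with the block) and *IL3RA* at 0.22 (adjusted p = 0.250). Of the mature list, 9 of 10 were tested and 4 passed with the block, where 2.13% of all genes did, and 0 without it. *IL7R*, the interleukin-7 receptor chain, rose by 1.27 (adjusted p = 0.00782) and *KLF2*, a factor of thymic exit, rose by 0.84 (adjusted p = 0.0151), whereas *ITGB7* fell by 0.50 (adjusted p = 0.0232) and *CD52* fell by 0.62 (adjusted p = 0.0461). Of 18 blocked fits, *IL7R* passed in 15, *KLF2* in 13, *ITGB7* in 9 and *CD52* in 6.

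Of the genes next to the CD1 cluster on chromosome 1, 5 on each side, most were not measurable. Among the 10, 9 had a probe and 4 were tested, with *FCRL2* and *FCRL1*, receptors of B cells, on one side and the olfactory receptor genes *OR10T2* and *OR6Y1* on the other. With the block 1 of the 4 passed, where 2.13% of all genes did, and without it 0 passed, where 0.00681% did. *FCRL2* was 0.53 higher and passed with the block (adjusted p = 0.0349) and not without it (adjusted p = 0.656), at a dim level of 4.66 in control arrays. The probe used was well above background on 7 of 9 arrays, at a raw intensity of 28.5 to 67. A second *FCRL2* probe was so on 0 of 9 arrays. *FCRL2* was called in 3 of 17 blocked fits, and its difference ran from 0.19 to 1.16 over all settings. The other 3 were at 0.07, 0.32 and -0.33 and did not pass.

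The genes whose values most resembled those of the members over the 9 arrays were taken from 13238 genes above background on all of them. They were *MMAA* (Pearson r = 0.97) and *SMPD3* (0.97) for *CD1A*, *CLDN12* (0.97) and *MTF2* (0.97) for *CD1B*, and *PELI1* (0.98) and *DLEU1* (0.97) for *CD1C*. For *CD1E* the gene was *ITGA4* (0.99), and for *CD1D*, most of whose values lie near background, they were *RANGAP1* (0.97) and *SEPTIN14* (0.96). Every one of these genes had its lowest mean in replicate 1, as the CD1 probes did. *MMAA* moved from 9.15 in replicate 1 to 9.58 and 9.62 in replicates 2 and 3, a smaller step than that of *CD1A*. None of them passed the test between siRNA and control, with or without the block. Under the other normalizations the r of *RANGAP1* with *CD1D* fell to 0.48 and that of *SEPTIN14* to 0.77, and the lowest for the other genes named was 0.83, of *MTF2* with *CD1B*. The r values compare 9 points that share replicate numbers and slides, and are the highest among many genes.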

How the data were processed

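RNA from 9 ALL-SIL samples was profiled on custom Agilent arrays that carry mRNA and lncRNA probes. Per the file headers the deposited intensity of each spot came from Feature Extraction 10.5.1.1, and the submitters' processing notes name 9.1. The authors deposited the median intensity of the spot and its local background, a processed intensity and flags of 0 or 1, none normalized between arrays, and a table of log2 values that they normalized with VSN, used here as an alternative. VSN was fitted here to the median intensity by code written for this purpose, since the package was not installed (least trimmed squares, quantile 0.9, 7 iterations). It was tested on simulated data. Outlier spots were left out, spots of a probe were averaged and no spot was saturated. The local background was not subtracted. VSN fitted an offset and a scale for each array, and the generalized log2 values still compress differences of dim probes.

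limma 3.58.1 in R 4.3.3 was fitted to all 9 arrays without covariates, with Benjamini-Hochberg adjustment over 33595 probes and a threshold of 0.05. The replicate number as a block was an alternative. The numbers pair the samples, since the deviations from group means correlated at 0.30 to 0.72 in 9 of 9 same-number pairs and at -0.55 to 0.13 in the 18 others, so blocked values are printed beside the results. Other alternatives were the background correction, the scaling, the filter, the slide as a block, the prior variance and leaving out arrays. Blocked fits combined with another choice, and the test between replicate numbers, were added after the data were seen.

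Probes were named by matching transcript accessions to RefSeq (GRCh38.p14), which named 25728 of 57176 probes. A gene in a list stands for its brightest probe. Named genes are the CD1 genes, *PHF6*, *TLX1*, *B2M*, *CD4*, *CD8A*, *RAG1*, *RAG2*, *DNTT*, *PTCRA* and *CD34*, up to 6 genes per list that passed or else the 2 with the lowest blocked p, and the 2 genes most alike each member, of which 1 for *CD1E* is not reported here. The CD1 genes and the lists were chosen with earlier results of these data known. Promoter windows came from RefSeq, and protein sequences were not used here. Array number and signal over background limit the precision.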

Additional observations from a re-analysis of the deposited data

How the results depend on the processing

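The number of array probes called moved most. For both siRNAs against control it was 3, and it became 5 on the 75th percentile scale and 5 with normexp, 17 with the slide as a block and 820 with the replicate block. The replicate block gave 183 with VSN on the processed signal, 257 on the 75th percentile scale, 1142 with normexp, 855 with the deposited table and 1451 with probes above background on all 9 arrays. For siRNA1 the count of 3 became 0 with VSN on the processed signal, 6 on the 75th percentile scale, 6 with the stricter filter, 11 with the slide block, 0 with the arrays of the 2 groups alone, and 253 with the replicate block (27, 34, 423, 262 and 513 with the other scalings and the filter, in the order above). For siRNA2 the count of 4 became 0, 2, 9 with the slide block and 451 with the replicate block (41, 48, 793, 474 and 883). Between the siRNAs the count of 0 became 4 with the stricter filter, 6 with the slide block and 12 with the replicate block (8 with normexp, 10 with the deposited table, 14 with the filter). Leaving out arrays or replicate numbers, with and without the block, gave 0 to 1065, 0 to 534, 0 to 676 and 0 to 29 for the 4 comparisons.

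The CD1 probes called for both siRNAs were 0 to 3 when arrays were left out and 1 with the replicate block and the stricter filter, where *CD1C* kept its difference of 0.56. When arrays were left out the difference ran from 0.17 to 1.095 for *CD1A*, 0.20 to 0.71 for *CD1B*, 0.25 to 0.94 for *CD1C*, -0.0856 to 0.33 for *CD1D* and -0.19 to 0.38 for *CD1E*. For siRNA1 *CD1D* ran from -0.0066 to 0.43 and *CD1E* from -0.26 to 0.31, and for siRNA2 from -0.16 to 0.25 and from -0.11 to 0.51. The fitted *CD1D* values, readings over controls near background and no folds, were 0.13 for both siRNAs on the median intensity, 0.79 with VSN on the processed signal and 0.87 on the 75th percentile scale, where siRNA1 gave 0.98 and siRNA2 0.76. The sign of *CD1E* turned with VSN on the processed signal, with and without the block (-0.0158, and -0.0998 for siRNA1, where the 75th percentile scale gave -0.0026). Between the siRNAs the ranges were -0.53 to 0.44 for *CD1A*, -0.42 to 0.13 for *CD1B*, -0.45 to 0.38 for *CD1C*, -0.38 to 0.0469 for *CD1D* and -0.0849 to 0.41 for *CD1E*, *CD1C* gave 0.0136 with VSN on the processed signal and *CD1A* -0.0336 with normexp. Among named genes *B2M* gave 0.0119 and *IL3RA* -0.0163 with normexp, and when arrays were left out *B2M* ran from -0.15 to 0.0128, *RAG2* from -0.0456 to 0.52 and *CD34* from -0.18 to 0.0139. Of 18 fits with the block, *IL7R* passed in 15, *PTCRA* and *CD7* in 14, *KLF2* in 13, *ITGB7* in 9, *ARPP21* in 7, *CD28* and *CD52* in 6, *CLEC10A* in 3 and *CTSS* in 1.

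Between replicate numbers 11635 probes passed, 6543 with no filter and 5733 to 11746 when arrays were left out. The CD1 probes among them, *CD1D* included, were 5, or 3 to 5 when arrays were left out, 3 with VSN on the processed signal and 3 on the 75th percentile scale. The call of *CD1D* is not read as a result, since it was not well above background on any replicate 1 array. The cause of these shifts was not tested. The differences of *CD1A*, *CD1B* and *CD1C* for both siRNAs were above 0 under all alternatives. *CD1D* and *CD1C* are dim, which limits their precision.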
